A study of Homo sapiens with 12 samples.

Results

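Transcripts of 7 core genes of the RAS-RAF-MEK-ERK pathway were followed: HRAS, NRAS, SOS1, BRAF, MAP2K1, MAP2K2 and MAPK3. They were taken by symbol from the 27814 named genes of the count table, and all 7 were found. All 7 also passed the filter on low counts, which left 16208 genes for testing. HRAS and NRAS encode RAS GTPases, SOS1 encodes a RAS exchange factor, and the other 4 encode the kinases BRAF, MEK1, MEK2 and ERK1.

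The cells were BT474, an established hormone receptor-positive breast cancer line in which the HER2 gene is amplified. There were 4 groups of 3 libraries each: BRD8 KO cells in 200 nM neratinib for 4 h, parental cells in the same drug for the same time, BRD8 KO cells in DMSO, and parental cells in DMSO. BRD8 is a bromodomain protein of a chromatin-modifying complex, neratinib irreversibly inhibits the ErbB receptor kinases, and DMSO is the solvent. The labels name neither the exon that was targeted nor whether the KO cells are 1 clone or a mixed population, and they do not tie replicates to separate cultures. The p-values therefore measure only the spread among these libraries, part of which may be technical.

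In this pathway an activated receptor such as HER2 recruits SOS1 through adaptor proteins, and SOS1 loads RAS with GTP. GTP-bound RAS recruits RAF kinases, which phosphorylate MEK1 and MEK2, and these phosphorylate the ERK kinases. In HER2-amplified breast cancer cells the pathway carries growth signals from the receptor to the nucleus, and active ERK also induces its own inhibitors, among them the DUSP and Sprouty proteins. Activity passes along the chain by protein binding and phosphorylation, neither of which was measured here: every value below is a level of mRNA.

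Library totals ranged from 32471198 to 44726160 counts, and no member had fewer than 239 counts in any library. Levels are given in CPM, a gene's counts scaled to a common library size by the TMM method, for replicates 1, 2 and 3 in that order. BRD8 mRNA was at 153 to 158 CPM in KO-labelled and 232 to 242 CPM in parental cells in neratinib, and at 66.1 to 68.8 CPM in KO-labelled and 63.5 to 64.9 CPM in parental cells in DMSO. In DMSO the log2 difference of the targeted gene's mRNA, KO-labelled minus parental, was 0.07 (edgeR adjusted p = 0.0189), a call lost with DESeq2 (0.06, adjusted p = 0.106) and by edgeR without KO-labelled DMSO replicate 1 or 3, parental DMSO replicate 2 or 3, or parental neratinib replicate 1 or 3 (adjusted p of 0.0567 to 0.105). The mRNA was thus not shown to be lower in DMSO, so these cells are called KO-labelled throughout. All 10 markers of luminal and HER2-amplified cells were above 1 CPM in every group. The 14 markers of immune, fibroblast, endothelial and basal cells summed to 160.0 to 163 CPM in KO-labelled and 110 to 114 CPM in parental cells in neratinib, and to 122 to 131 CPM in KO-labelled and 86.3 to 93.0 CPM in parental cells in DMSO. Most of this was COL1A1 and VWF, and between 3 and 5 of the 14 reached 1 CPM in a group. In neratinib 0 of the 14 were at 0 in every KO-labelled library and 3 in every parental library. In DMSO these numbers were 1 and 3. Of these 14 markers 7 could be tested, and in KO-labelled against parental cells 6 were called higher in neratinib and 7 in DMSO. Their medians were 1.06 and 1.46 on the log2 scale, and 34.7% and 36.0% of all genes were called higher. Of the 10 luminal and HER2 markers, 3 were called higher and 6 lower in neratinib, and 5 higher and 5 lower in DMSO. The sum of the 14 markers moved with both genotype and drug, and its part in the results was not tested.

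**Figure D1:**
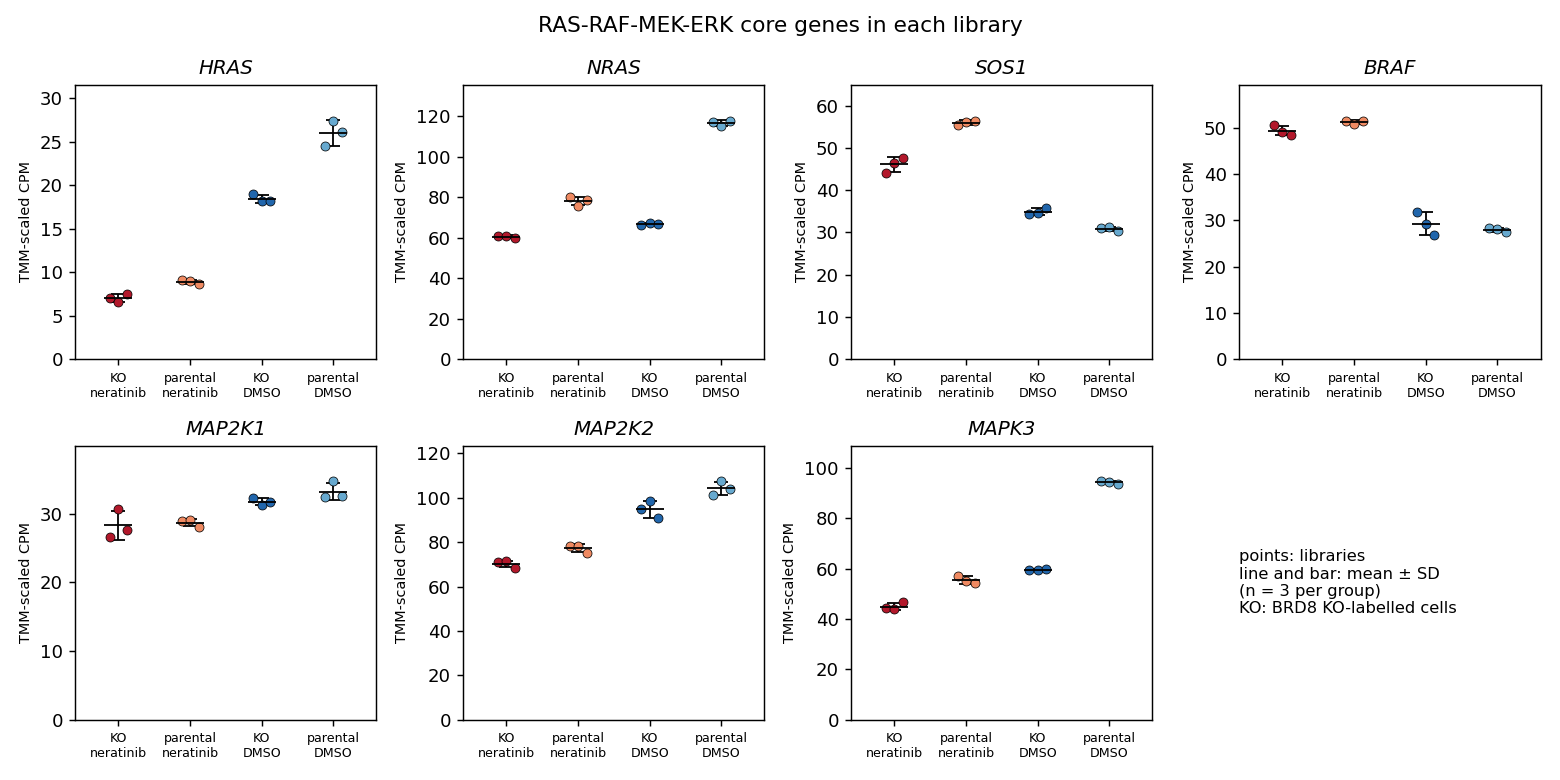
Level of each of the 7 genes in each library, in TMM-scaled CPM on axes that start at 0; points are libraries, and line and bar are the mean ± SD of 3. HRAS averaged 7.03 CPM in KO-labelled cells in neratinib and 26.0 CPM in parental cells in DMSO, while SOS1 and BRAF were higher in neratinib than in DMSO in both genotypes.

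HRAS had the largest neratinib response of the 7 genes and fell to 0.38 times its DMSO level in KO-labelled and 0.343 times in parental cells. NRAS fell too, but more in parental than in KO-labelled cells, and both RAS genes were lower in KO-labelled than in parental cells under either treatment. HRAS, on the minus strand of chromosome 11 from 532242 to 537287 (GENCODE 29, GRCh38), encodes a farnesylated and palmitoylated RAS GTPase. Its level was 7.07, 6.52 and 7.49 CPM in KO-labelled cells and 9.12, 8.94 and 8.65 CPM in parental cells in neratinib, and 19.0, 18.2 and 18.2 CPM in KO-labelled cells and 24.5, 27.4 and 26.1 CPM in parental cells in DMSO. No 2 of the 4 groups overlapped: parental DMSO libraries were the highest and KO-labelled neratinib libraries the lowest. The share of all genes whose groups separate in this way was not counted, here or for the genes below.

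In KO-labelled cells the log2 fold change of HRAS in neratinib was -1.40 (SE 0.0627; adjusted p = 6.32e-24 by the quasi-likelihood test of edgeR). In parental cells it was -1.54 (SE 0.0555; edgeR adjusted p = 1.24e-27). Adjusted p-values throughout are Benjamini-Hochberg values over all 16208 genes, and a gene is said to have changed where its value is below 0.05. In bulk RNA, fewer cells of a type and less RNA per cell cannot be told apart. Only 2.27% of the genes tested had a lower fold change than HRAS in KO-labelled cells, and 2.8% had a lower one in parental cells. The difference between the genotypes' responses was 0.15 (95% interval -0.03 to 0.32; edgeR adjusted p = 0.175) and was not called.

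Between genotypes, HRAS was lower in KO-labelled than in parental cells by a log2 fold change of -0.35 (SE 0.0722) in neratinib and -0.49 (SE 0.0484) in DMSO, with edgeR adjusted p-values of 4.07e-05 and 2.75e-12. The comparison of genotypes in DMSO and the neratinib response of parental cells share the parental DMSO libraries, and other comparisons that have a group in common share its libraries likewise. Values of such comparisons are therefore set side by side and not as independent results.

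NRAS lies on the minus strand of chromosome 1 from 114704469 to 114716894 and encodes another RAS GTPase, which signals from the plasma membrane and the Golgi. Its level was 61.0, 60.6 and 59.7 CPM in KO-labelled cells and 80.0, 75.7 and 78.7 CPM in parental cells in neratinib, and 66.4, 67.3 and 66.6 CPM in KO-labelled cells and 117, 115 and 118 CPM in parental cells in DMSO. The parental DMSO libraries stood far above the rest, and the KO-labelled libraries in DMSO were already below the parental libraries in neratinib.

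Between genotypes in DMSO, NRAS was at 0.573 times the parental level in KO-labelled cells, a log2 fold change of -0.80 (SE 0.0257; edgeR adjusted p = 5.27e-29), and 5.5% of genes had a lower one. In neratinib the difference between the genotypes was -0.37 (SE 0.0274; edgeR adjusted p = 4.15e-16). The neratinib response was -0.14 (SE 0.028) in KO-labelled cells and -0.58 (SE 0.0251) in parental cells, both called by edgeR, with adjusted p-values of 1.2e-05 and 1.64e-24. These responses differed by 0.43 (SE 0.0377; edgeR adjusted p = 4.81e-13), and 10.3% of genes had a larger positive difference.

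Because HRAS and NRAS fell together in neratinib but by unequal amounts, the 250 bases before their transcription starts are shown from RefSeq (GRCh38.p14), in the direction of transcription. HRAS is at chr11:535577-535826 and NRAS at chr1:114716772-114717021, both on the minus strand. Capitals mark GTAAACA, a motif of FOXO factors, and CACGTG, an E-box bound by MYC and related factors.
HRAS: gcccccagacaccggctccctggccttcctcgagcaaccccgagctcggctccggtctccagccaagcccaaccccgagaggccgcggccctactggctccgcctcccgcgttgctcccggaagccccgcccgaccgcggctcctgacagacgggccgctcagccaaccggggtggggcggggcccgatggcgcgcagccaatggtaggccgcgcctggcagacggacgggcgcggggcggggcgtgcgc
NRAS: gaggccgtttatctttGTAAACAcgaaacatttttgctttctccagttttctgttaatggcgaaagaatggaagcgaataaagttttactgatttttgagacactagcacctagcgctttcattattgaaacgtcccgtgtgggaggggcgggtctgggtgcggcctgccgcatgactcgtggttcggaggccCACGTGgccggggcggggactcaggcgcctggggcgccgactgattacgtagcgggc
The HRAS window held 77.2% G and C, holds neither motif, and has 3 matches to GGGCGG, the SP1 motif. The NRAS window held 54.4% G and C, against a median of 58.0% over 35116 promoters. NRAS has GTAAACA starting 234 bases and CACGTG starting 57 bases before the start, besides 2 matches to GGGCGG.

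The ratio of HRAS to NRAS counts within a library does not depend on scaling between libraries. It averaged 0.116 ± 0.00887 in KO-labelled and 0.114 ± 0.0041 in parental cells in neratinib, and 0.276 ± 0.0084 in KO-labelled and 0.223 ± 0.0145 in parental cells in DMSO (SD, n = 3 each). The neratinib libraries of both genotypes overlapped and lay below every DMSO library. The log2 ratio in neratinib minus that in DMSO was -1.25 in KO-labelled cells and -0.97 in parental cells, each with an exact two-sided permutation p = 0.1, the smallest that 3 against 3 can give. Between genotypes it was 0.03 in neratinib (exact permutation p = 0.8) and 0.31 in DMSO (exact permutation p = 0.1).

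SOS1, the exchange factor that loads RAS with GTP, moved opposite to the RAS genes: it rose in neratinib in both genotypes, less in KO-labelled cells. It lies on the minus strand of chromosome 2 from 38981396 to 39124345. Its level was 44.2, 46.6 and 47.6 CPM in KO-labelled cells and 55.4, 56.2 and 56.5 CPM in parental cells in neratinib, and 34.4, 34.6 and 35.8 CPM in KO-labelled cells and 31.2, 31.2 and 30.3 CPM in parental cells in DMSO. No groups overlapped, and the order of the genotypes turned round: KO-labelled libraries were the lower ones in neratinib and the higher ones in DMSO.

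The neratinib response of SOS1 was 0.40 on the log2 scale (SE 0.0339) in KO-labelled and 0.86 (SE 0.0334) in parental cells, with edgeR adjusted p-values of 1.81e-14 and 2.33e-26. The responses differed by -0.46 (SE 0.0479; edgeR adjusted p = 8.4e-11), and 12.2% of genes had a lower difference. KO-labelled minus parental cells gave -0.28 (SE 0.0313) in neratinib and 0.18 (SE 0.0362) in DMSO, with edgeR adjusted p-values of 1.29e-10 and 3.2e-05.

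BRAF, the RAF kinase with the strongest basal activity and a frequent site of cancer mutations, also rose in neratinib, and its levels in the genotypes were close under each treatment. It lies on the minus strand of chromosome 7 from 140719327 to 140924928. Its level was 50.5, 49.1 and 48.6 CPM in KO-labelled cells and 51.4, 50.8 and 51.6 CPM in parental cells in neratinib, and 31.8, 29.1 and 26.9 CPM in KO-labelled cells and 28.3, 28.1 and 27.4 CPM in parental cells in DMSO. All neratinib libraries were above all DMSO libraries, and the KO-labelled DMSO libraries were the most spread of the 4 groups, reaching both above and below the parental ones.

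The neratinib response of BRAF was 0.75 on the log2 scale (SE 0.0383) in KO-labelled and 0.88 (SE 0.0382) in parental cells, with edgeR adjusted p-values of 7.95e-22 and 1.73e-24. The responses differed by -0.13 (SE 0.0547; edgeR adjusted p = 0.0522), which was not called. Without KO-labelled DMSO replicate 3 that difference was -0.18 (edgeR adjusted p = 0.0042) and was called, as it was without KO-labelled neratinib replicate 1 at -0.14 (edgeR adjusted p = 0.0433) and without parental neratinib replicate 2 at -0.14 (edgeR adjusted p = 0.0495). KO-labelled minus parental cells gave -0.05 in neratinib (95% interval -0.12 to 0.02) and 0.07 in DMSO (95% interval -0.01 to 0.16), with edgeR adjusted p-values of 0.158 and 0.116. The DMSO value was 0.12 without KO-labelled DMSO replicate 3 (edgeR adjusted p = 0.0106).

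Strand was not given for the counts, and exons of BRAF share 1239 bases with exons of NDUFB2 on the opposite strand. Of the 9529 windows of read length (50 bases) along the longest BRAF transcript, 14.4% matched a transcript of another gene in sequence on either strand. NDUFB2, a respiratory chain subunit named after its values were seen, fell in neratinib by 0.36 in KO-labelled and 0.34 in parental cells on the log2 scale, against the rise of BRAF; the part of shared reads in either value was not tested.

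The 250 bases before the BRAF start (RefSeq, GRCh38.p14, chr7:140924269-140924518, minus strand) are shown because BRAF rose where NRAS fell, yet both windows hold GTAAACA, again in capitals.
BRAF: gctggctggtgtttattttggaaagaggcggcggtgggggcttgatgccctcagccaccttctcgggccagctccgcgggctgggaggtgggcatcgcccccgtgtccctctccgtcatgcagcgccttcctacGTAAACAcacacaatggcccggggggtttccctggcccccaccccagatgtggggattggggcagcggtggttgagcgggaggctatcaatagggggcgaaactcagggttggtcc
In this window the motif starts 116 bases before the start, there is no CACGTG, and G and C make up 64.8%. A match in such a window is a description and does not show binding.

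Both MEK genes fell in neratinib, MAP2K2 to 0.74 times its DMSO level in either genotype and MAP2K1 to 0.896 times in KO-labelled and 0.864 times in parental cells. MAP2K1, on the plus strand of chromosome 15 from 66386817 to 66492312, encodes MEK1. Its level was 26.7, 30.7 and 27.6 CPM in KO-labelled cells and 28.9, 29.2 and 28.1 CPM in parental cells in neratinib, and 32.3, 31.3 and 31.7 CPM in KO-labelled cells and 32.4, 34.7 and 32.6 CPM in parental cells in DMSO. The neratinib libraries were below the DMSO libraries of both genotypes, and the genotypes overlapped in neratinib.

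MAP2K1 changed by -0.16 on the log2 scale (SE 0.0424) in KO-labelled and -0.21 (SE 0.0418) in parental cells in neratinib, with edgeR adjusted p-values of 0.000859 and 1.54e-05. No difference between the genotypes was called: KO-labelled minus parental cells gave -0.01 in neratinib (95% interval -0.10 to 0.07) and -0.06 in DMSO (95% interval -0.15 to 0.02), with edgeR adjusted p-values of 0.805 and 0.159. The responses differed by 0.05 (95% interval -0.07 to 0.17; edgeR adjusted p = 0.507). Exons of MAP2K1 overlap 432 bases of the antisense gene AC116913.1 and 216 bases of SNAPC5, both on the opposite strand. Of the read-length windows along its longest transcript, 335 (9.97%) matched another gene's transcript in sequence, 247 of them AC116913.1. SNAPC5, named after its values were seen, stood at 4.78 to 6.13 CPM in the neratinib and 6.81 to 10.1 CPM in the DMSO libraries.

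MAP2K2 encodes MEK2 and lies on the minus strand of chromosome 19 from 4090321 to 4124129. Its level was 70.9, 71.3 and 68.5 CPM in KO-labelled cells and 78.2, 78.3 and 75.3 CPM in parental cells in neratinib, and 95.1, 98.5 and 90.7 CPM in KO-labelled cells and 101, 107 and 104 CPM in parental cells in DMSO. The 4 groups were separate, with the same order of genotypes under both treatments.

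The neratinib response of MAP2K2 was -0.43 in both genotypes (SE 0.0292 in KO-labelled and 0.0284 in parental cells), with edgeR adjusted p-values of 1.16e-17 and 4.65e-18. The difference of the responses had a 95% interval of -0.09 to 0.08 (edgeR adjusted p = 0.956). KO-labelled minus parental cells gave -0.14 (SE 0.0299) in neratinib and -0.13 (SE 0.0277) in DMSO, with edgeR adjusted p-values of 8.49e-05 and 3.98e-05. Of the read-length windows along MAP2K2, 15.7% matched a transcript of the gene AC011005.1 in sequence; no gene overlapping MAP2K2 was found.

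The ratio of MAP2K1 to MAP2K2 counts averaged 0.404 ± 0.0275 in KO-labelled and 0.372 ± 0.0021 in parental cells in neratinib, and 0.336 ± 0.0163 in KO-labelled and 0.319 ± 0.0056 in parental cells in DMSO (SD, n = 3 each). Every neratinib library was above every DMSO library. The log2 ratio in neratinib minus that in DMSO was 0.26 in KO-labelled and 0.22 in parental cells, each with an exact permutation p = 0.1. Between genotypes it was 0.12 in neratinib (exact permutation p = 0.1) and 0.07 in DMSO, where the groups overlapped (exact permutation p = 0.3). Without KO-labelled neratinib replicate 2 the value in neratinib was 0.07, and in DMSO it was 0.11 without KO-labelled DMSO replicate 2 and 0.04 without KO-labelled DMSO replicate 3.

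MAPK3, which encodes ERK1, followed the pattern of NRAS: lower in KO-labelled cells, and lower in neratinib by more in parental than in KO-labelled cells. It lies on the minus strand of chromosome 16 from 30114105 to 30123506. Its level was 44.3, 43.9 and 46.6 CPM in KO-labelled cells and 57.1, 55.2 and 54.2 CPM in parental cells in neratinib, and 59.3, 59.5 and 60.0 CPM in KO-labelled cells and 94.6, 94.3 and 93.8 CPM in parental cells in DMSO. Parental DMSO libraries were again far above the rest, and no groups overlapped.

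In DMSO, KO-labelled cells had 0.632 times the parental MAPK3 level, a log2 fold change of -0.66 (SE 0.0278; edgeR adjusted p = 1.29e-24), and 7.98% of genes had a lower one. In neratinib the difference was -0.31 (SE 0.0312; edgeR adjusted p = 8.47e-12). The neratinib response was -0.41 (SE 0.0309) in KO-labelled and -0.76 (SE 0.028) in parental cells, with edgeR adjusted p-values of 7.07e-16 and 2.93e-27. These responses differed by 0.36 (SE 0.0419; edgeR adjusted p = 1.73e-09), and 13.1% of genes had a larger positive difference. The 250 bases before the MAPK3 start (RefSeq, GRCh38.p14, chr16:30123221-30123470, minus strand) are shown beside those of NRAS because these 2 genes had the largest genotype differences of the 7 in DMSO; capitals mark CACGTG.
MAPK3: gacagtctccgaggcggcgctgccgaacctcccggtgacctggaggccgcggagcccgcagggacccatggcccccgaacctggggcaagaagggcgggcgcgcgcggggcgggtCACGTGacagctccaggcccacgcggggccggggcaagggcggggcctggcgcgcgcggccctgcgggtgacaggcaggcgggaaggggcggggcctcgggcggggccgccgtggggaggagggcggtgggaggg
CACGTG starts 135 bases before the start, and 6 matches to GGGCGG lie in a window with 80.4% G and C.

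RefSeq lists 10 starts for the 7 genes, and both strands of the 250 bases before each were searched. The FOXO motif was found at 2 of the 10 starts, and 2.98% of all 35116 promoters hold it. The E-box was also found at 2, against 6.35% of all promoters, and the SP1 motif at 6, against 42.6%. The CCAAT box was found at 4 of the starts, against 32.0% of all promoters. TGACG, the core of the cyclic AMP response element, was found at 2, against 21.2%. An ETS motif, CCGGAAGT, was found at 0 of the 10 and in 3.42% of all promoters. None of the motifs in capitals overlapped a match to another motif.

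The summed counts of both MEK genes over those of MAPK3 averaged 2.20 ± 0.128 in KO-labelled and 1.91 ± 0.0358 in parental cells in neratinib, and 2.12 ± 0.0763 in KO-labelled and 1.46 ± 0.0467 in parental cells in DMSO (SD, n = 3 each). The parental DMSO libraries were the lowest, and the KO-labelled groups overlapped each other. The log2 ratio in neratinib minus that in DMSO was 0.05 in KO-labelled (exact permutation p = 0.4; 0.01 to 0.09 when 1 library was left out) and 0.39 in parental cells (exact permutation p = 0.1). KO-labelled minus parental cells gave 0.20 in neratinib and 0.54 in DMSO, each with an exact permutation p = 0.1.

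**Figure D2:**
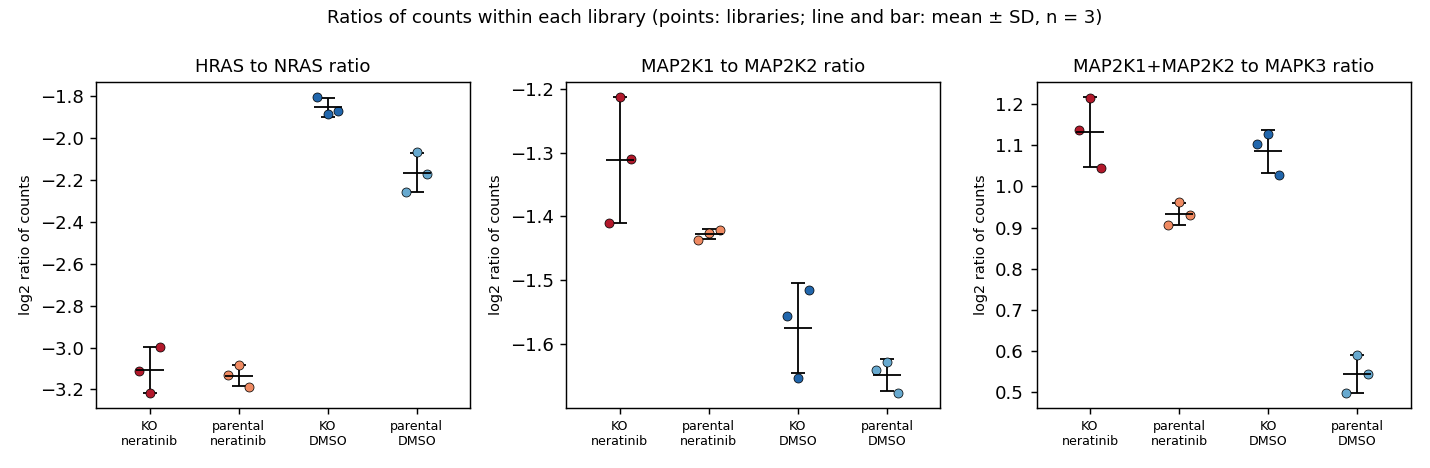
Log2 ratio of counts within each library for HRAS to NRAS, MAP2K1 to MAP2K2, and MAP2K1 plus MAP2K2 to MAPK3, by group; points are libraries, and line and bar are the mean ± SD of 3. HRAS to NRAS is lowest in the 6 neratinib libraries, MAP2K1 to MAP2K2 is highest there, and both MEK genes over MAPK3 are lowest in parental cells in DMSO.

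Read over the 7 genes, both neratinib comparisons called all of them, with 2 rises (SOS1 and BRAF) and 5 falls in each. The background was also high: 77.2% of all genes were called in KO-labelled cells, 38.9% higher and 38.4% lower, and 80.7% in parental cells, 41.8% higher and 38.9% lower. Changes of at least 1.5-fold were made by HRAS and BRAF in KO-labelled cells, 2 of 7 against 33.1% of all genes, and by HRAS, MAPK3, SOS1 and BRAF in parental cells, 4 of 7 against 39.8%. The median response of the 7 was -0.16 in KO-labelled and -0.43 in parental cells, against 0.02 and 0.04 over all genes.

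Between genotypes, 5 of 7 were called in neratinib, all lower in KO-labelled cells, and 5 in DMSO, of which 4 were lower and SOS1 was higher; 71.6% of all genes were called in each comparison. In neratinib 36.9% of all genes were called lower in KO-labelled cells, and in DMSO 35.6% were called lower and 36.0% higher. A difference of at least 1.5-fold was reached in DMSO by NRAS and MAPK3, 2 of 7 against 23.1% of all genes, and in neratinib the largest was that of NRAS at 0.772 times the parental level, short of 1.5-fold, which 22.9% of all genes reached. The median was -0.28 in neratinib and -0.13 in DMSO, against -0.02 and 0.00 over all genes. The difference of the responses was called for NRAS, SOS1 and MAPK3, 3 of 7 against 46.1% of all genes. It was positive for NRAS and MAPK3, as for 21.5% of all genes, and negative for SOS1, as for 24.6%, and each of the 3 was smaller than 1.5-fold, a size that 9.43% of genes reached. Against such backgrounds the counts of called genes say little of the 7 as a group, and their sizes and order are the description given here.

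**Figure D3:**
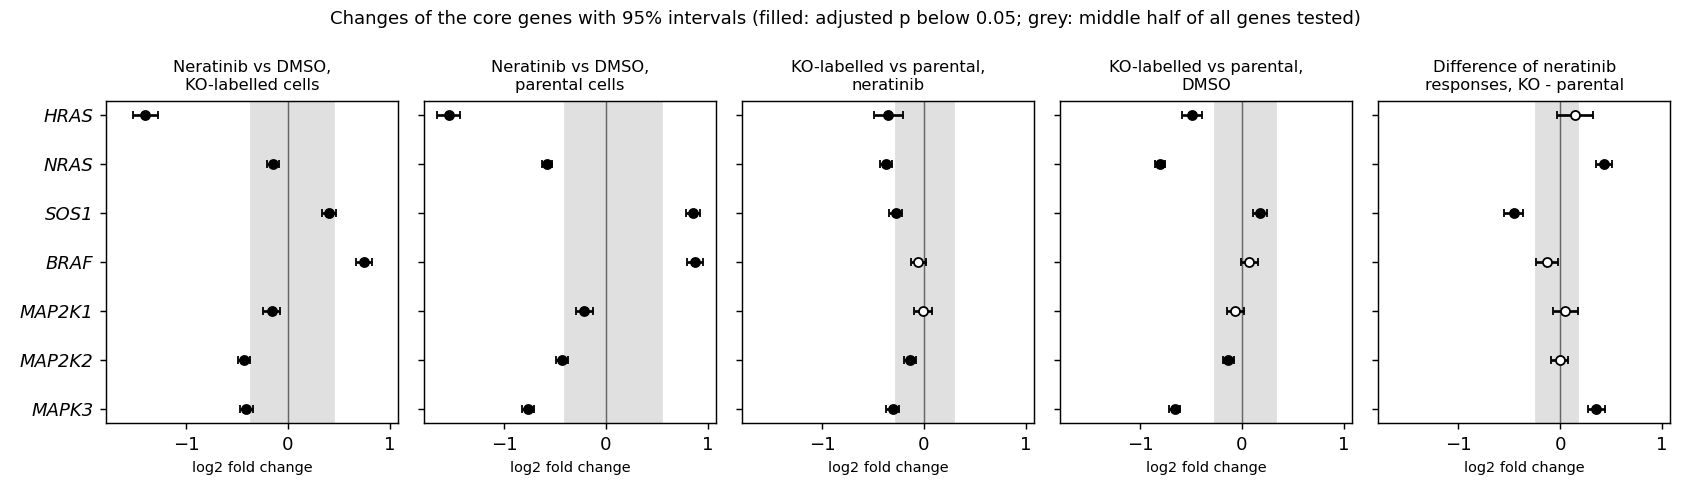
Log2 fold change of each of the 7 genes with its 95% interval in the 5 comparisons (neratinib against DMSO in KO-labelled and in parental cells, KO-labelled against parental cells in neratinib and in DMSO, and the difference of the responses); filled points have an edgeR adjusted p below 0.05, and grey spans the middle 50% of all genes tested. HRAS lies farthest left in both panels of neratinib against DMSO at -1.40 and -1.54. For KO-labelled against parental cells in DMSO, NRAS, MAPK3 and HRAS lie left of the grey band at -0.80, -0.66 and -0.49.

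Levels can be compared between genes only per length, here CPM per kilobase of the merged exons of the basic GENCODE 29 transcripts. In parental cells in DMSO the order was MAP2K2 at 60.1 ± 1.76, MAPK3 at 32.5 ± 0.144, NRAS at 26.2 ± 0.305, HRAS at 19.8 ± 1.12, MAP2K1 at 9.50 ± 0.366, SOS1 at 3.62 ± 0.062 and BRAF at 1.94 ± 0.0305 CPM per kilobase (SD, n = 3), and no neighbours in this order overlapped. In KO-labelled cells in DMSO the order was the same, with NRAS at 15.0 ± 0.105 and HRAS at 14.0 ± 0.354 close but separate. In neratinib MAP2K1 passed HRAS: it was at 8.10 ± 0.606 in KO-labelled and 8.20 ± 0.156 in parental cells, where HRAS was at 5.34 ± 0.368 and 6.76 ± 0.181 CPM per kilobase. HRAS and SOS1 overlapped there, with SOS1 at 5.41 ± 0.207 in KO-labelled and 6.58 ± 0.068 in parental cells. This order depends on the transcripts counted in the length. With all GENCODE 29 transcripts, chosen after seeing the data, NRAS was first in parental cells in DMSO at 26.2 CPM per kilobase. MAPK3 followed at 25.7 and MAP2K2 at 19.9. With these lengths SOS1 was above HRAS in neratinib without overlap. SOS1 was at 4.77 to 5.14 in KO-labelled and 5.98 to 6.10 in parental cells, and HRAS at 3.52 to 4.04 and 4.665 to 4.92.

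SOS2 and ARAF, close relatives of SOS1 and BRAF, were chosen after their values were seen. In neratinib SOS2, a second RAS exchange factor, changed by 0.19 in KO-labelled and 0.31 in parental cells on the log2 scale (both called by edgeR). ARAF, another RAF kinase, was lower in KO-labelled cells at -0.20 (edgeR adjusted p = 4.14e-09) and was at 0.05 in parental cells (edgeR adjusted p = 0.0641). In parental cells these responses were smaller in size than those of SOS1 and BRAF, a difference between genes that was not tested.

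Other genes of the pathway were read from 8 lists grouped by role, in which most lists moved both ways in neratinib. Their medians stand beside all-gene medians of 0.02 in KO-labelled and 0.04 in parental cells. Their counts stand beside 38.9% of all genes called higher and 38.4% lower in KO-labelled cells, and 41.8% and 38.9% in parental cells. Upstream of RAS, 8 of the 15 adaptors and exchange factors other than SOS1 rose and 3 fell in KO-labelled cells, and 7 rose and 4 fell in parental cells, with list medians of 0.19 and 0.42. GAB1, an adaptor that recruits PI3-kinase and SHP2, rose by 1.08 and 1.17 on the log2 scale. PTPN11, which encodes SHP2, fell by 0.22 in KO-labelled and 0.43 in parental cells. SHC2 was higher in KO-labelled than in parental cells by 2.33 in neratinib and 2.41 in DMSO, and RASGRF1, an exchange factor, by 1.52 and 1.48.

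Of the RAS GTPase-activating proteins, which switch RAS off, 9 of 10 could be tested; 5 rose and 4 fell in KO-labelled cells, and 6 rose and 3 fell in parental cells, with medians of 0.53 and 0.26. RASAL2 rose by 1.65 and 1.30, while NF1 fell by 0.55 in parental cells, with a difference of responses of 0.46 (edgeR adjusted p = 5.45e-14). RASA4 rose by 1.22 in parental cells, but it has near-identical copies and its counts are uncertain. Of the 4 other RAS-family GTPases 3 fell in KO-labelled and 4 in parental cells, MRAS most, by 1.48 and 1.69, with list medians of -0.27 and -0.45.

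RAS proteins reach the membrane after lipid modification. Of 9 genes for these steps 1 rose and 6 fell in KO-labelled cells, and 4 rose and 4 fell in parental cells, with medians of -0.20 and -0.07. ICMT, which methylates the farnesylated cysteine, fell by 1.58 and 1.53, and LYPLA2, a depalmitoylating enzyme, by 0.65 and 0.87. ZDHHC9, a subunit of the enzyme that palmitoylates HRAS and NRAS, was lower in KO-labelled than in parental cells, at -0.71 in neratinib and -0.96 in DMSO on the log2 scale.

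Among 8 other RAF, KSR, MEK and ERK family genes 4 rose and 4 fell in KO-labelled cells, and 4 rose and 3 fell in parental cells, with medians of 0.05 and 0.23. KSR2, a scaffold for RAF and MEK, rose by 1.24 and 1.25. Of 15 tested scaffolds and regulators 4 rose and 8 fell in KO-labelled cells, and 3 rose and 9 fell in parental cells, with medians of -0.14 and -0.17. PEA15, which holds ERK in the cytoplasm, fell by 0.75 and 0.93, and PPP1CA, a phosphatase subunit that can act with SHOC2 on RAF, by 0.73 and 0.68. The related subunits PPP1CB and PPP1CC are named after their values were seen. PPP1CB averaged 239 CPM in neratinib and 196 CPM in DMSO in KO-labelled cells, and 186 and 162 CPM in parental cells. PPP1CC averaged 153 and 199 CPM in KO-labelled cells, and 177 and 216 CPM in parental cells. Of 13 tested kinases and ETS factors that ERK phosphorylates or regulates, 5 rose and 7 fell in each genotype, with medians of -0.42 in KO-labelled and -0.37 in parental cells, RPS6KA4 falling by 0.88 and 1.47 and RPS6KA5 rising by 0.63 and 0.77.

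Transcripts that ERK induces fell in nearly every case, and more in parental cells. Of 10 ERK output genes 9 fell and SPRY2, a feedback inhibitor, rose in KO-labelled cells, and all 10 fell in parental cells, with list medians of -1.51 and -2.85 on the log2 scale. DUSP6, the ERK phosphatase, was at 12.9, 12.8 and 11.8 CPM in KO-labelled and 2.23, 2.12 and 1.95 CPM in parental cells in neratinib, and at 26.9, 27.9 and 29.5 CPM in KO-labelled and 38.4, 35.8 and 35.5 CPM in parental cells in DMSO. Its neratinib libraries were thus the lower ones in each genotype, with the parental ones lowest of all. The difference of the responses was called for 8 of the 10, all less negative or positive in KO-labelled cells. Of all genes, 46.1% were called, and 21.5% were called with a positive difference. The list median was 1.32 against -0.02 over all genes, and the difference was 2.95 for DUSP6 and 2.07 for SPRY4 (edgeR adjusted p = 4.41e-27 and 1.2e-09). In neratinib SPRY4 was at 0.86 to 0.99 CPM in KO-labelled and 0.33 to 0.47 CPM in parental cells, so its difference rests on few counts. SPRY2 was at 1.18 to 2.46 CPM over all libraries. The list of ERK output genes was drawn up with earlier results of these libraries known, so its direction is not independent evidence. NRAS and MAPK3 had differences of the same sign, at 0.43 and 0.36, and SOS1 one of the opposite sign at -0.46.

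Between genotypes, KO-labelled cells in neratinib had 8 of 10 ERK output genes higher and 2 lower (median 1.04 against -0.02 over all genes), and in DMSO 2 higher and 6 lower (median -0.27 against 0.00). Of the 9 tested GTPase-activating proteins, 7 were higher and 1 lower in KO-labelled cells in neratinib, and 4 were higher and 1 lower in DMSO. Adaptors and exchange factors gave 6 higher and 5 lower in neratinib and 7 higher and 3 lower in DMSO. The other RAF, KSR, MEK and ERK family genes gave 3 higher and 3 lower in neratinib and 6 higher and 1 lower in DMSO. Scaffolds and regulators were mostly lower, 9 against 5 higher in neratinib and 10 against 3 in DMSO. ERK-regulated kinases and ETS factors were mostly higher, 10 against 2 lower in neratinib and 8 against 4 in DMSO. Of the 9 membrane-processing genes 5 were called lower and the other 4 were not called in neratinib, and 4 were called each way in DMSO. The 4 other RAS-family GTPases gave 2 higher and 1 lower in neratinib and 1 higher and 2 lower in DMSO. Of all genes, 34.7% were called higher and 36.9% lower in KO-labelled cells in neratinib, and 36.0% higher and 35.6% lower in DMSO.

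**Figure D4:**
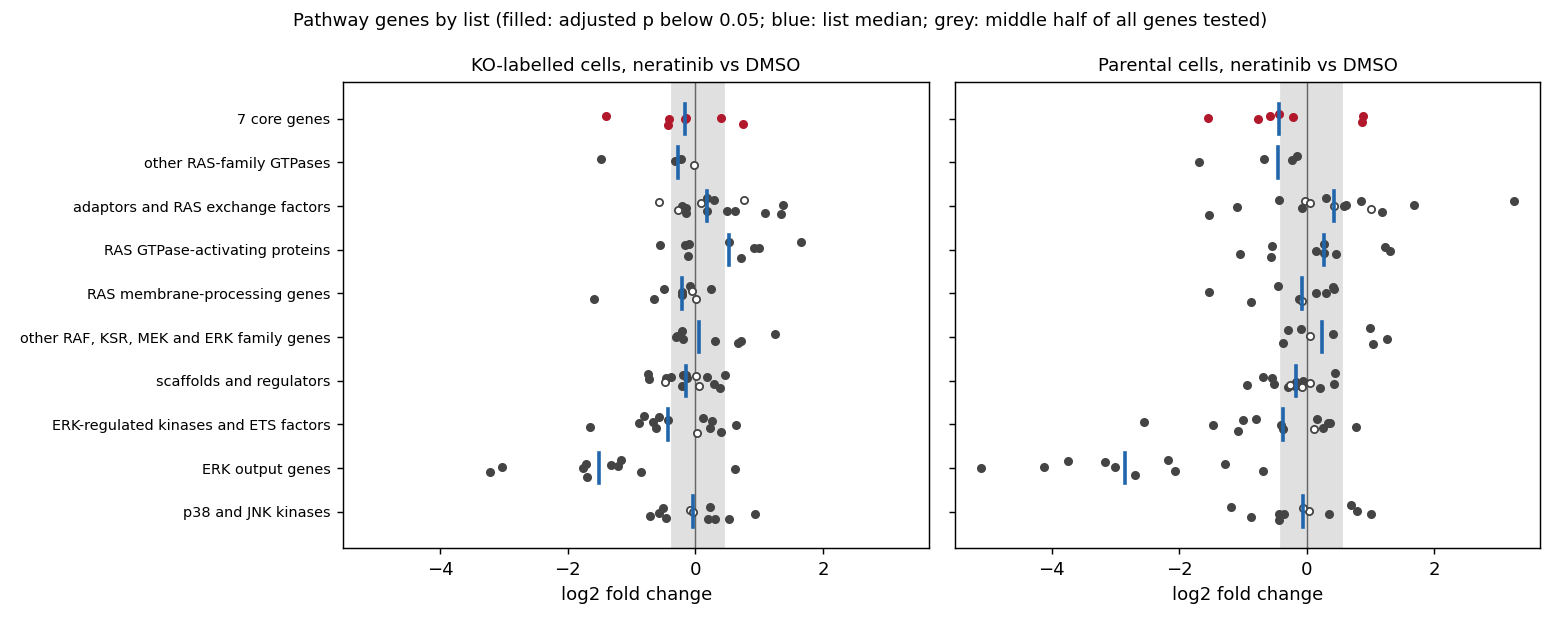
Log2 fold change in neratinib against DMSO of the 7 genes (red) and of each other gene in the pathway lists (grey), in KO-labelled cells on the left and parental cells on the right; filled points have an edgeR adjusted p below 0.05, blue lines are list medians, and the grey band spans the middle 50% of all genes tested. The ERK output genes lie farthest left, with medians of -1.51 and -2.85, and the 7 core genes lie on both sides of 0.

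Genes with the most similar pattern were ranked by Pearson correlation of log2(CPM + 0.5) over the 12 libraries among 11102 genes of at least 5 CPM on average. The points fall in 4 groups and share their libraries, so r describes the order of group means and has no p. For HRAS the closest were RPS6KB2 (r = 0.998) and GNAS (0.997), for NRAS TRMT6 (0.995) and ANO6 (0.994), and for MAPK3 TCF7L1 (0.998) and ENTR1 (0.996). SOS1 was closest to BDNF-AS (0.995) and NCOA3 (0.993), BRAF to ZNF585B (0.997) and GARRE1 (0.994), and MAP2K2 to KRBA1 and CORO1B (both 0.993). MAP2K1 had the weakest match, USP45 at 0.945 and FBXO6 at 0.936.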

How the data were processed

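RNA of 12 BT474 libraries was sequenced as single reads of 50 bases from TruSeq RNA v2 libraries, per the labels' protocols. The authors deposited 1 table of raw counts, in whole reads for each gene. The submitters' processing notes name FastQC 0.11.7, STAR 2.7.9, edgeR 3.40.2 and GRCh38; which program counted reads, on what annotation and with what strand setting is not given in the sources used here. Of 28395 lines, 581 without a gene symbol (0.0877% to 0.124% of a library's counts) were left out.

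Counts were filtered (filterByExpr), TMM-scaled and fitted with edgeR 4.0.16 in R 4.3.3, with a quasi-likelihood model of 4 group means over all 12 libraries (8 residual degrees of freedom). Genes with a Benjamini-Hochberg adjusted p below 0.05 were called. The common coefficient of variation between replicates was 1.86%, so small differences passed the test. Replicates differed by more than sampling noise (chi-square per degree of freedom 1.37 to 3.565) and all were kept. On simulated counts of 15226 genes for neratinib against DMSO in parental cells, sets of 50 genes were changed by a known fold. Recovered were 70% of those changed 1.25-fold, 70% at 1.5-fold, 88% at 2-fold and 92% at 4-fold.

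Ratios of raw counts were compared by exact two-sided permutation. Promoter windows came from RefSeq (GRCh38.p14) and gene positions from GENCODE 29, and these sources place some starts differently. The 7 genes and all lists were chosen with earlier results of these data known. Text names the 7 genes, BRD8, for each list and comparison at most the 2 called genes of largest rise and the 2 of largest fall at 1 CPM or more, and for each of the 7 genes its 2 most similar genes; others are said to have been chosen after their values were seen. Some genes of the lists are counted but not reported here by name. Alternatives were DESeq2 1.42.0, DESeq2-style size factors, library totals, no filter, at least 5 CPM, a fixed coefficient of variation of 0.1, a replicate block and leaving out each library.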

Additional observations from a re-analysis of the deposited data

Results flagged for a closer look

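The results below are here because the neratinib response differed between KO-labelled and parental cells by edgeR's interaction test; each value is the log2 response in KO-labelled cells minus the log2 response in parental cells. Only the 7 genes, BRD8, SOS2, ARAF and the list genes of largest rise or fall in neratinib were considered. Other list genes with a called difference are therefore left out. Of all genes, 46.1% were called by this test. With 3 libraries a group, single libraries that stand apart were not looked for. Among the 7 core genes the difference was 0.432 for NRAS, -0.456 for SOS1 and 0.355 for MAPK3. It was -0.663 for BRD8 itself, whose mRNA rose by 1.21 in KO-labelled and 1.88 in parental cells.

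Among close relatives of the core genes it was -0.117 for SOS2, -0.248 for ARAF, 0.346 for RRAS2 and -0.265 for MAP2K5. The SOS2 call was lost with DESeq2 (adjusted p = 0.137), with DESeq2-style size factors (edgeR adjusted p = 0.0667), with a fixed coefficient of variation of 0.1 (0.794) and in 5 of the 12 fits without 1 library (0.0561 to 0.149): without replicate 1 of KO-labelled DMSO, KO-labelled neratinib or parental neratinib cells, or replicate 3 of parental DMSO or parental neratinib cells. Upstream of RAS the difference was -0.666 for SHC3, 0.821 for GAB2 and 0.219 for PTPN11. GAB2 was near 1 CPM in neratinib, and without KO-labelled neratinib replicate 2 its difference was 0.67 (edgeR adjusted p = 0.0576).

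Among RAS GTPase-activating proteins it was 0.355 for RASAL2, -0.305 for RASA4, 0.456 for NF1, 0.543 for RASA3 and 0.377 for DAB2IP. For scaffolds and membrane-processing genes it was 0.185 for PEA15, -0.173 for GOLGA7 and 0.213 for LYPLA2. For kinases and factors downstream of ERK it was -0.141 for RPS6KA5, -0.34 for MKNK2, 0.911 for ELK3 and 0.593 for RPS6KA4; without KO-labelled neratinib replicate 1 that of ELK3 was 0.69 (edgeR adjusted p = 0.102). For ERK output genes it was 2.95 for DUSP6, 2.07 for SPRY4, 1.30 for SPRY2 and 0.533 for CCND1. SPRY4 was below 1 CPM in every neratinib library, and SPRY2 was at 1.18 to 2.46 CPM over all libraries. The fixed coefficient of variation that ended the SOS2 call also ended those of ARAF (edgeR adjusted p = 0.435), RRAS2 (0.242), MAP2K5 (0.427) and PTPN11 (0.521). It ended those of RASA4 (0.317), NF1 (0.0656), LYPLA2 (0.534), MKNK2 (0.22) and ELK3 (0.066) too. Not every flagged gene was rechecked in this way.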

How the results depend on the processing

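Of 665 recomputed fold changes of the 7 genes, 649 kept their side of the threshold, 7 passed it and 9 lost it. The sign differed for 15, all of BRAF, MAP2K1 or MAP2K2 and not called in either fit. Of 3427 recomputed fold changes of other genes, 3327 kept their side of the threshold, 9 passed it and 91 lost it. When every gene was given a coefficient of variation of 0.1, above that of the replicates, 3 of the 7 genes were called between genotypes in DMSO, against 5, and 0 for the difference of responses, against 3 (NRAS adjusted p = 0.0879, SOS1 0.0709 and MAPK3 0.199 by edgeR). It left 4 of 5 called between genotypes in neratinib (MAP2K2 adjusted p = 0.371), 5 of 7 for the neratinib response of KO-labelled cells (NRAS 0.305, MAP2K1 0.248) and 6 of 7 for that of parental cells (MAP2K1 0.122). The same setting called 6974 genes against 11609 between genotypes in DMSO, 6950 against 11605 in neratinib, and 1436 against 7468 for the difference of responses. BRAF was called between genotypes in DMSO at 5 CPM or more (0.10, edgeR adjusted p = 0.0387), and for the difference of responses with library totals (-0.15, 0.024) and no filter (-0.14, 0.0333). Leaving out 1 library gave 5 to 6 called genes between genotypes in DMSO, 5 in neratinib, 7 for each neratinib response and 3 to 4 for their difference. The HRAS to NRAS log2 ratio of KO-labelled minus parental cells in neratinib then ranged from -0.03 to 0.08. A replicate block gave 5, 5, 7, 7 and 3 called genes, as without it; same-numbered libraries had deviations correlated at -0.122 to 0.069, so the numbers were not taken as pairs. Overlapping genes on the opposite strand limit BRAF and MAP2K1, sequence shared with another gene limits MAP2K2, and depth limits HRAS most, with 239 to 1022 counts a library.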

Other observations

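The genes beside the core genes on the chromosome were read for comparison, a step added after seeing the data. For each core gene the 10 tested genes on either side were taken. In DMSO the median of the 20 neighbours of NRAS was 0.07 for KO-labelled minus parental cells on the log2 scale, with 9 lower and 11 higher, where NRAS was at -0.80. For MAPK3 the neighbours' median was -0.10, with 12 lower and 8 higher, where MAPK3 was at -0.66. In neratinib the neighbours of HRAS had a median response of -0.14 in KO-labelled cells (15 lower, 5 higher) and -0.15 in parental cells (11 lower, 9 higher). HRAS was at -1.40 and -1.54. Neighbours of MAP2K1 were mostly lower in KO-labelled than in parental cells, 17 of 20 in neratinib and 15 in DMSO, with medians of -0.17 and -0.15. MAP2K1 itself was at -0.01 and -0.06. Those of MAPK3 had a median response of -0.23 in parental cells (14 lower, 6 higher), where MAPK3 was at -0.76.

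The parallel p38 and JNK kinase cascades gave 5 rises and 4 falls among 11 genes in neratinib in KO-labelled cells, and 4 rises and 5 falls in parental cells, where 38.9% of all genes rose and 38.4% fell in KO-labelled cells and 41.8% rose and 38.9% fell in parental cells. Their list medians were -0.04 and -0.05 on the log2 scale.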
